A study of Mus musculus with 67 samples.

Results

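The loss of Gli3 was measured at 2 stages of the mouse forelimb bud, and the result described here is the difference between those measurements: the Gli3-/- minus WT difference in anterior buds at E10.5, minus the same difference in whole buds at E9.25, for every gene of the RNA-seq tables. All 14 RNA-seq libraries of these 4 groups, out of 67 samples in the series, entered 1 model, and 16368 of 46983 listed gene IDs had a TPM (a transcript share scaled by length and library total) of at least 1 in at least 3 libraries and were tested. The E9.25 libraries held whole forelimb buds of embryos with 21 to 23 somites, 3 from WT and 4 from Gli3-/- embryos, each a pool of about 4 bud pairs. The E10.5 libraries held the anterior part of forelimb buds of embryos with 32 to 35 somites, 4 from WT and 3 from Gli3-/- embryos. Each was a pool of 2 bud pairs by the sample labels, whereas the paper's methods give about 4 pairs per replicate at both stages. All embryos were of the Swiss Webster background, and the mutants carried 2 copies of the Xt-J allele, a constitutive deletion in Gli3, so that every cell of the embryo lacked the protein and not the limb bud alone. Stage, the part of the bud that was taken and, by the labels, the number of pairs pooled changed together, so that they cannot be told apart in any difference between the stages.

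GLI3 is a transcription factor of the Hedgehog (HH) pathway. Without HH ligand it is processed to a repressor, and signalling from the Shh-expressing posterior margin of the limb bud prevents this processing, so that most repressor is found in the anterior bud. The libraries at E9.25 precede HH signalling in the forelimb bud, and those at E10.5 anterior come from the part of the bud that lies far from Shh once it is expressed. The interaction of stage and genotype asks which genes responded to the loss of Gli3 at one of these points and not at the other, and which responded in opposite directions.

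Gli3 itself (chr13:15463235-15730026, plus strand, mm10) was listed at TPM 44.2, 15.8 and 44.6 in E9.25 WT and at 14.3, 20.6, 20.8 and 19.1 in their Gli3-/- counterparts. In the E10.5 anterior libraries it was at 84.3, 73.4, 89.7 and 79.1 in WT and at 40.9, 40.3 and 38.7 in Gli3-/-. The groups were separate at E10.5 and overlapped at E9.25, because the library labelled E9.25 WT replicate 2 lay within the mutant range. That library also had the fewest genes at TPM 1 or more, 13276 against up to 15816 in the others. Ptch1, the receptor and a direct target of the pathway, was at 2.48 in it and at 8.08 and 5.82 in the other E9.25 WT libraries, below all Gli3-/- libraries (21.4 to 38.5), so that by this gene the library lay with WT. It also lay with WT by Gpx6 (0.599, against 5.98 to 9.38 in E9.25 Gli3-/-) and by Foxf1 (0.221, against 12.1 to 35.5). The interaction for Gli3 was −0.27 on the log2(TPM + 1) scale (SE 0.37, limma adjusted p = 0.675), and since the allele deletes a part of the gene, RNA from the rest remained in the mutants. Counts that rest on E9.25 are therefore also given after leaving out the library labelled E9.25 WT replicate 2. It is called the doubtful WT library below, for its Gli3 level and its number of genes alone.

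The response differed between the stages for 348 genes, which is 2.13% of the genes tested (limma adjusted p below 0.05). The difference was negative for 270 genes (1.65%), that is, the mutant level relative to WT was lower at E10.5 than at E9.25, and positive for 78 (0.477%). At an unadjusted p below 0.05 there were 3443 genes, and 301 of the 348 had an absolute difference of at least 1 on the log2(TPM + 1) scale, on which all differences here are given and which understates changes of genes at low TPM. Without the doubtful WT library the count was 218, of which 63 were positive and 155 negative. The count was 1433 without E9.25 WT replicate 1, 201 without E9.25 WT replicate 3, 221 without E9.25 Gli3-/- replicate 3, 208, 230 and 201 without E10.5 WT replicates 1, 3 and 4, and 223, 204 and 150 without E10.5 Gli3-/- replicates 1, 2 and 3.

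The excess of negative differences moved with the scale of the libraries. The median gene had a difference of 0.21 between the genotypes at E9.25, of −0.02 at E10.5 and therefore an interaction of −0.24. With each library centred on its median the calls were 168 positive and 173 negative, with quantile normalization 164 and 181, and with median-of-ratios scaling 134 and 215. The number called was 341, 345 and 349, of which 241, 244 and 289 were among the 348, so that the split between directions moved more than the count did. The differences named below are given on the deposited scale and can be read against −0.24.

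By the stage at which the genotype effect passed in the same model, the 348 genes fell into 4 classes. For 151 genes the effect passed only at E10.5, and the response is said to appear. For 128 genes it passed only at E9.25, and the response is said to vanish. For 14 it passed at both stages with opposite signs, a reversal, and for 55 it passed at neither stage although the difference between stages did. No gene with a called interaction had a response that passed at both stages in the same direction. The classes rest on effects of which 796 passed at E9.25 (4.86% of genes, 686 higher and 110 lower in Gli3-/-) and 386 at E10.5 (2.36%, 131 higher and 255 lower). The excess of higher genes at E9.25 did not hold under other scalings: 228 were higher and 382 lower with libraries centred on their median, 303 and 350 with median-of-ratios scaling, and 203 and 212 with quantile normalization. Without the doubtful WT library 87 genes passed at E9.25, 60 higher and 27 lower. The fall was not particular to that library: without E9.25 WT replicate 3, 73 passed, 58 higher and 15 lower.

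**Figure D1:**
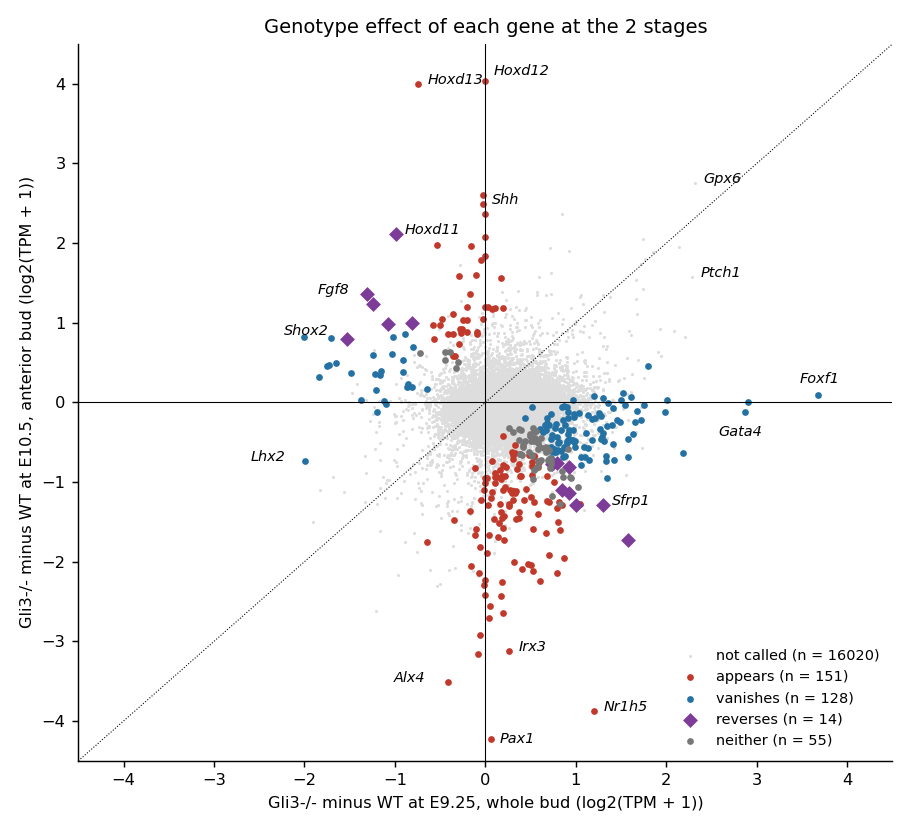
Gli3-/- minus WT difference at E9.25 (horizontal axis) against the difference at E10.5 anterior (vertical axis) for the 16368 genes tested, both in log2(TPM + 1), with the 348 genes of called interaction coloured by class. Genes whose response appears lie along the vertical axis, genes whose response vanishes lie along the horizontal axis, and the 14 reversals lie in the upper left and lower right.

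The model used 1 estimate of spread for both stages, whereas the libraries of E9.25 varied more: the median standard deviation over genes was 0.252 and 0.229 in E9.25 WT and Gli3-/- and 0.146 and 0.131 in E10.5 WT and Gli3-/-. When each stage was fitted alone, 20 of 14760 genes passed at E9.25 (0.136%) and 747 of 15654 at E10.5 (4.77%). Of the 151 responses that appear, 148 also passed in the fit of E10.5 alone. Of the 128 that vanish, 11 passed in the fit of E9.25 alone, and 21 passed in the fit of E10.5 alone, 20 of them with a sign opposite to that at E9.25. Of the 14 reversals, 14 passed in the fit of E10.5 alone and 0 in that of E9.25 alone. For the reversals the adjusted p at E9.25 alone was 0.0619 to 0.217. Membership of the vanishing and reversing classes thus differed between the joint model and the separate fits, which also have fewer degrees of freedom and other genes tested. Without the doubtful WT library there were 149 appearing, 33 vanishing and 2 reversing responses, and without E9.25 WT replicate 3 there were 129, 21 and 4. Leaving out each of the 14 libraries in turn, 132 of the 348 genes passed every time: 77 that appear, 40 that vanish, 14 that reverse and 1 called at neither stage.

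Of the appearing responses 39 were toward higher expression in the mutant anterior bud, with a median effect of −0.20 at E9.25 and 1.17 at E10.5. The leading genes were those of the posterior limb programme: 5' Hoxd genes, which pattern the distal limb, Shh, the ligand of the pathway, and Fgf4, a signal of the apical ectodermal ridge that Shh sustains. Hoxd13 (chr2:74668310-74671599) was at TPM 2.37, 2.72 and 2.54 in E9.25 WT and at 1.42, 1.09, 0.628 and 1.43 in E9.25 Gli3-/-. It was at 3.57, 13.5, 5.65 and 2.53 in E10.5 WT and at 67.7, 132 and 109 in E10.5 Gli3-/-. The mutant libraries were thus all below WT at the early stage and all above it at the late stage, and the interaction was 4.74 (SE 0.52, limma adjusted p = 0.000358). The early difference did not pass (−0.74, SE 0.37, limma adjusted p = 0.157), which places Hoxd13 among the appearing responses.

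Hoxd12 (chr2:74675013-74677705) was at or near 0 in the 7 libraries of E9.25 (up to 0.106), at 0.520, 4.62, 0.947 and 0.274 in E10.5 WT and at 20.03, 52.5 and 37.2 in E10.5 Gli3-/-. The E10.5 groups did not overlap, and the interaction was 4.04 (SE 0.57, limma adjusted p = 0.00192). Hoxa13 (chr6:52257694-52260880), the HoxA gene of the autopod, was up to 0.0626 at E9.25, at 0.828, 2.49, 5.73 and 4.09 in E10.5 WT and at 12.98, 34.6 and 24.6 in E10.5 Gli3-/-. Its interaction of 2.63 (SE 0.51, limma adjusted p = 0.0154) did not pass without E10.5 Gli3-/- replicate 3. The gene 9530018H14Rik, next to Hoxa13, was listed at 0 in all E9.25 libraries and passed with an interaction of 2.36 (SE 0.39, limma adjusted p = 0.0051). The second E10.5 WT library held the most Hoxd13 and Hoxd12 of its group, but not the most Hoxa13.

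Shh (chr5:28456815-28467256) was listed at 0 in all 4 E10.5 WT libraries and at 1.17, 7.47 and 8.67 in the 3 E10.5 Gli3-/- libraries. In E9.25 libraries it was at 0.0603 in 1 WT library and at 0 in the other 6. Anterior Shh was therefore measured in the mutant at the late stage alone, with an interaction of 2.52 (SE 0.51, limma adjusted p = 0.0179). It met the expression filter only through these 3 libraries, so that leaving out any of them removed it from testing. The SE pools them with groups at or near 0, so that this p does not describe the spread of the mutant group. Fgf4 (chr7:144861386-144865243) was listed at 0 in every E9.25 library, at 0.501, 0.557, 1.30 and 1.34 in E10.5 WT and at 5.63, 5.69 and 10.4 in E10.5 Gli3-/-. Its interaction was 2.08 (SE 0.30, limma adjusted p = 0.00207). A response that appears can therefore mean that the gene was not measurable at E9.25, as for Hoxd12, Hoxa13, Shh and Fgf4. Over all called genes, 43 had a group mean of at least TPM 1 in 1 group alone and 219 in all 4 groups.

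In the other direction 112 responses appeared, with a median effect of 0.26 at E9.25 and −1.26 at E10.5. They included transcription factors of the anterior limb and shoulder girdle and genes that respond to BMP signalling. Pax1 (chr2:147361925-147393295), which acts in shoulder blade formation, was at 0 in 6 E9.25 libraries and at 0.182 in the other. It was at 16.2, 8.27, 30.7 and 34.6 in E10.5 WT and at 0.136, 0.172 and 0 in E10.5 Gli3-/-. The WT level was thus reached only at the late stage and in no mutant library, with an interaction of −4.29 (SE 0.48, limma adjusted p = 0.000382).

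Irx3 (chr8:91798525-91801916), a homeobox factor needed for anterior skeletal elements, differed from Pax1 in that it was expressed at both stages. It was at 38.1, 27.7 and 27.2 in E9.25 WT and at 30.4, 43.1, 45.5 and 31.4 in E9.25 Gli3-/-. It was at 65.7, 48.2, 67.4 and 53.5 in E10.5 WT and at 11.5, 6.77 and 2.24 in E10.5 Gli3-/-. The genotypes overlapped early and were far apart late, with an interaction of −3.39 (SE 0.46, limma adjusted p = 0.00151). Irx5, its neighbour on chromosome 8, moved likewise, with a difference of 0.04 at E9.25, −2.71 at E10.5 and an interaction of −2.75 (SE 0.39, limma adjusted p = 0.00192). Irx3 overlaps the antisense gene Irx3os, and whether the counting used strand is not stated.

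Alx4 (chr2:93642384-93681339), a homeobox factor that restricts posterior genes from the anterior bud, was at 14.6, 11.2 and 13.5 in E9.25 WT and at 6.73, 12.8, 11.5 and 8.07 in E9.25 Gli3-/-. At E10.5 it was at 52.9, 31.9, 51.0 and 51.0 in WT and at 6.22, 3.73 and 1.05 in Gli3-/-. The E9.25 groups overlapped, the E10.5 groups did not, and the interaction was −3.09 (SE 0.47, limma adjusted p = 0.00327). Alx4 overlaps Ext2 on the other strand. Alx1, a related factor, was slightly higher in the early mutants without passing (0.37) and fell by 1.45 on the log2 scale in the late ones (interaction −1.82, SE 0.21, limma adjusted p = 0.00053). The largest difference of all was that of Nr1h5, a nuclear receptor, which was at 8.21 to 32.7 in E10.5 WT and listed at 0 in the 3 E10.5 Gli3-/- libraries. At E9.25 it went the other way, from 0, 0.0520 and 0.121 in WT to 1.54, 2.31, 2.37 and 0.234 in Gli3-/-, which did not pass (limma adjusted p = 0.0638), and its interaction was −5.08 (SE 0.55, adjusted p = 0.000358).

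Among the genes that respond to BMP signalling was Msx2 (chr13:53466884-53473074), a homeobox factor. It was at 37.1, 33.8 and 34.1 in E9.25 WT, at 33.3, 44.5, 48.6 and 35.1 in the mutants of that stage, at 42.0, 31.8, 43.3 and 41.5 in E10.5 WT and at 8.98, 6.88 and 6.73 in E10.5 Gli3-/-. The first 3 of these groups overlapped and the last lay below them, with an interaction of −2.44 (SE 0.21, limma adjusted p = 0.000104). Id2, an inhibitor of helix-loop-helix factors and a BMP target, was at 158, 174 and 188, at 219, 210.0, 217 and 187, at 194, 203, 201 and 246, and at 95.0, 85.3 and 78.0 in the same order of groups. Only the last group lay apart from its WT counterpart, and the interaction was −1.55 (SE 0.15, limma adjusted p = 0.000176). Of the 19 tested BMP ligands, antagonists and response genes, 5 passed, all negative: Msx2, Id2, Id3 (−1.39), Id1 (−0.94) and the receptor gene Bmpr1b (−1.18, lost on leaving out any of 9 libraries). The list's median was −0.77, against −0.24 for all genes, of which 2.13% passed.

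**Figure D2:**
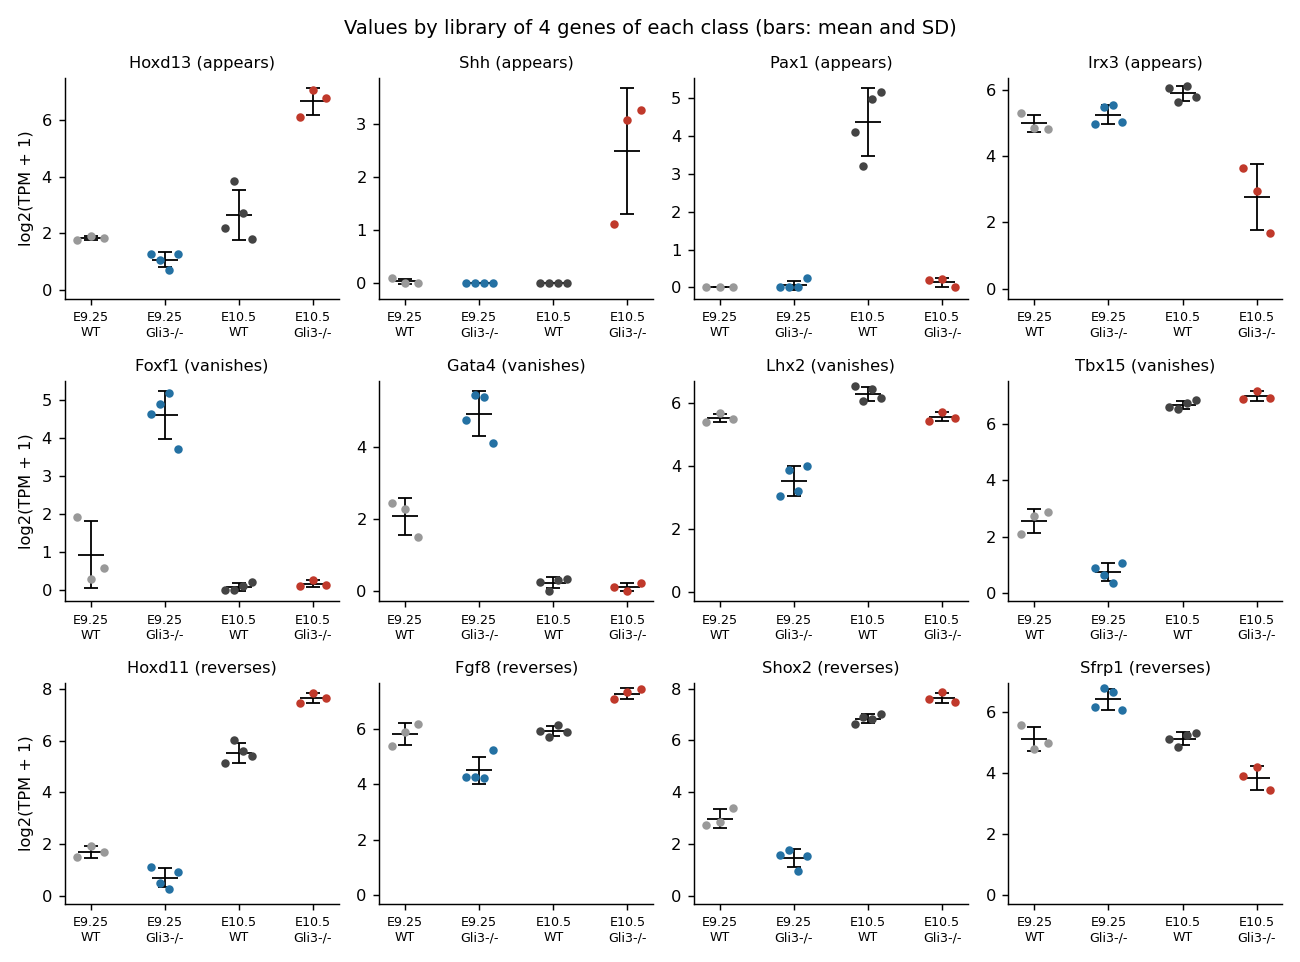
TPM of 12 genes in each of the 14 libraries on a log2(TPM + 1) scale, with points for libraries and bars for the group mean and standard deviation; the top row holds responses that appear, the middle row responses that vanish and the bottom row reversals. Hoxd13 rises to 67.7 to 132 only in the E10.5 Gli3-/- libraries, Foxf1 to 12.1 to 35.5 only in the E9.25 Gli3-/- libraries, and Hoxd11 lies below WT at E9.25 and above it at E10.5.

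Of the 128 responses that vanish, 101 were higher in the mutants at E9.25, with a median effect of 0.996 there and −0.35 at E10.5. Factors of the lateral plate and flank mesoderm, the tissue from which the bud grows out, led this group. Foxf1 (chr8:121084386-121088144), a forkhead factor of splanchnic mesoderm, was at 2.80, 0.221 and 0.495 in E9.25 WT and at 23.7, 28.8, 35.5 and 12.1 in E9.25 Gli3-/-. At E10.5 it did not exceed 0.202 in any library of either genotype. The early groups were far apart and the late ones at the floor, with an interaction of −3.59 (SE 0.50, limma adjusted p = 0.00179). Gata4 (chr14:63198922-63271692), a zinc finger factor of anterior lateral plate mesoderm, was at 4.42, 3.82 and 1.80 in E9.25 WT, at 26.1, 42.9, 41.5 and 16.3 in E9.25 Gli3-/- and at no more than 0.242 at E10.5. Its interaction was −2.99 (SE 0.41, limma adjusted p = 0.00158), and the long noncoding RNA D030025E07Rik, listed at 0 in all 7 E10.5 libraries, had one of −2.90 (SE 0.27, limma adjusted p = 0.000145). For these 3 genes the levels in the anterior bud at E10.5 did not exceed TPM 0.242 in either genotype.

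Hand1, a basic helix-loop-helix factor of ventral lateral mesoderm, was at 24.6, 5.04 and 7.35 in E9.25 WT and at 47.0, 71.6, 79.1 and 20.6 in E9.25 Gli3-/-, which overlapped. Its interaction of −2.81 (SE 0.66, limma adjusted p = 0.0402) was lost on leaving out any of 11 of the 14 libraries, the doubtful WT library among them. Foxc1, a forkhead factor of mesoderm on the same chromosome as Gli3, was at 1.92, 1.42 and 1.19 in E9.25 WT and at 4.56, 7.22, 5.62 and 5.14 in Gli3-/-. Unlike Foxf1 and Gata4 it was still expressed at E10.5, at 3.01, 3.77, 4.45 and 5.71 in WT and at 3.44, 4.87 and 1.86 in Gli3-/-, where the groups overlapped (interaction −1.69, SE 0.34, limma adjusted p = 0.0175; lost without E9.25 WT replicate 3). The region around Gli3 held few such genes: within 20 Mb 179 genes were tested and 2 passed, Foxc1 and Prl8a2, or 1.12%. A genotype difference near Gli3 that is alike at both stages cancels in the interaction and is not counted here.

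Markers of some other tissues, though not of all, were higher in the early mutants. Of 15 markers of flank and lateral plate mesoderm, which include Foxf1, Gata4 and Hand1, 12 were tested, 8 passed as higher in E9.25 Gli3-/- and 6 passed with a negative interaction (Foxf1, Gata4, Hand1, Gata6, Nr2f1 and Gata5). Over all genes 4.86% passed at E9.25, 686 of 796 higher, an excess that did not hold under other scalings. A negative interaction passed for 1.65% of all genes. In the fit of E9.25 alone, Foxf1 and Gata4 passed. Hand1, Gata5 and Gata6 did not (limma adjusted p = 0.152, 0.206 and 0.201). The calls of Gata6, Gata5 and Nr2f1 were lost on leaving out any of 12, 10 and 6 libraries. Their summed TPM was 94.2 to 152 in E9.25 WT and 176 to 340.4 in E9.25 Gli3-/-, without overlap, and 109 to 137 against 92.4 to 122 at E10.5, with overlap; 1 marker, Nkx2-5, was at 0 throughout. The sums of intermediate mesoderm markers (14.8 to 25.2 against 36.2 to 54.7) and of endothelial markers (133 to 222 against 238 to 360.4) were also higher in the E9.25 mutants and overlapped at E10.5. Endoderm and yolk sac markers summed to 1.90 to 5.71 against 6.02, 9.18, 11.3 and 239.6 at E9.25, where the highest was Gli3-/- replicate 1 alone, and to 3.88 to 5.42 against 5.98 to 8.79 at E10.5. The E9.25 sums of somite, muscle, neural tube, neural crest, surface ectoderm, erythroid, macrophage and heart markers overlapped between the genotypes. In such bulk samples a larger share of cells of a type and more RNA per cell cannot be told apart, and the part of these tissues in the vanishing responses was not tested. Without the doubtful WT library, 2 flank markers passed, and 4 did with the libraries centred on their median or with quantile normalization. The fall was not particular to that library. The count was also 2 without E9.25 WT replicate 3, E9.25 Gli3-/- replicate 2 or 3, or E10.5 WT replicate 1 or 3. It was 3 without E10.5 WT replicate 4 or any E10.5 Gli3-/- replicate, and 4 to 7 without each remaining library.

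**Figure D3:**
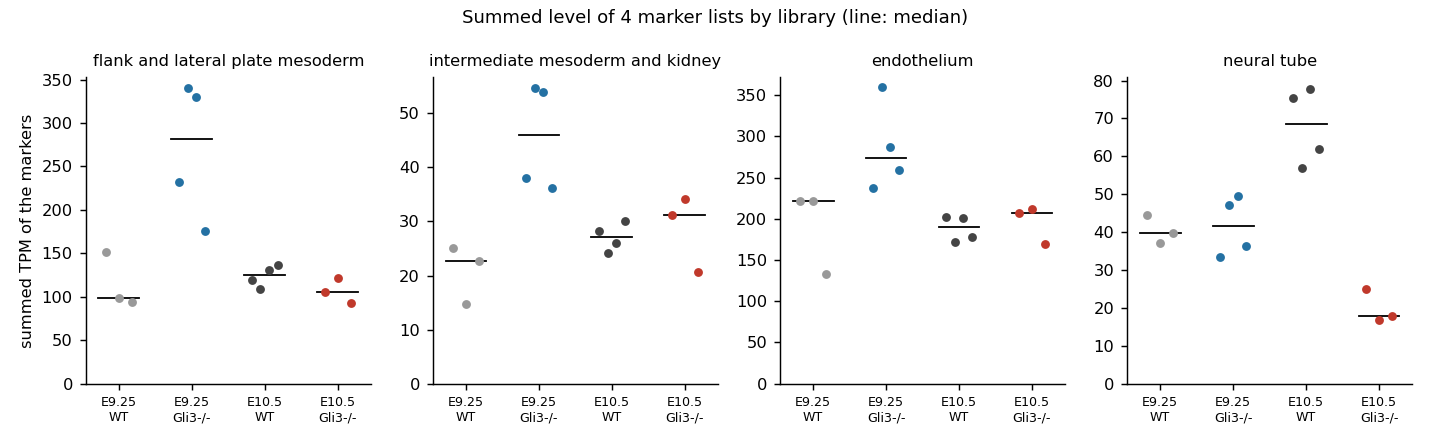
Summed TPM of 4 lists of tissue markers in each library, with a line at the group median. The sums of flank, intermediate mesoderm and endothelial markers are higher in the 4 E9.25 Gli3-/- libraries than in the 3 E9.25 WT libraries. The neural tube sum is lower in the E10.5 Gli3-/- libraries (16.7 to 25.0 against 57.0 to 77.8), and most of it in E10.5 WT is Irx3.

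Irx3 belongs to the neural tube list as well as to the anterior limb genes, and its own level made up most of that sum in E10.5 WT. The lower sum in E10.5 Gli3-/- therefore cannot be read as a fall of the other neural tube markers. Of its 15 markers 2 were tested, Irx3 and Tubb3, a neuronal tubulin (interaction 1.54, SE 0.33, limma adjusted p = 0.0231). The other 13 did not reach the expression filter, and 3 of them, Nkx2-2, Dbx1 and Lhx5, were listed at 0 in every library.

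The remaining 27 vanishing responses were lower in the early mutants, with a median effect of −1.17 at E9.25 and 0.37 at E10.5. They held factors of bud outgrowth and proximodistal patterning. Tbx15 (chr3:99240381-99354259), a T-box factor of limb mesenchyme, was at 3.24, 5.72 and 6.38 in E9.25 WT and at 0.869, 0.560, 0.272 and 1.07 in E9.25 Gli3-/-. It was at 97.6, 91.3, 108 and 115 in E10.5 WT and at 118, 146 and 121 in E10.5 Gli3-/-, so that a gene well below WT in the early mutants stood slightly above it in the late ones. Its interaction was 2.15 (SE 0.28, limma adjusted p = 0.000985), and the late difference of 0.31 did not pass. Zic2, a zinc finger factor, showed the same order of groups, from 7.45, 11.8 and 12.7 in E9.25 WT to 2.20, 3.34, 0.880 and 4.08 in Gli3-/- (interaction 2.20, SE 0.39, limma adjusted p = 0.00777).

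Lhx2 (chr2:38339281-38369733), a LIM homeobox factor of distal mesenchyme, belonged here by the joint model only. It was at 41.1, 50.2 and 44.6 in E9.25 WT and at 7.24, 13.8, 8.16 and 15.0 in Gli3-/-, and at 91.8, 66.1, 86.6 and 71.1 in E10.5 WT and 42.5, 52.1 and 45.6 in Gli3-/-. The mutants were below WT at both stages, by more at the early one (−1.995 against −0.74), and the late difference passed in the fit of E10.5 alone (limma adjusted p = 0.0105). The interaction of 1.26 (SE 0.29, limma adjusted p = 0.0402) was lost on leaving out any of 10 libraries. The late response of Lhx2 was thus smaller than the early one, and it was called at both stages when each was fitted alone (limma adjusted p = 0.0142 at E9.25).

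For other genes of this class the late difference had the opposite sign and passed when E10.5 was fitted alone. Hoxd10 (chr2:74691924-74695105) was at 19.9, 39.7 and 48.2 in E9.25 WT, at 6.15, 8.17, 4.51 and 14.5 in E9.25 Gli3-/-, at 82.3, 84.5, 74.3 and 71.9 in E10.5 WT and at 140.0, 140.2 and 137 in E10.5 Gli3-/-. The mutants were all below WT and then all above it, with an interaction of 2.83 (SE 0.42, limma adjusted p = 0.00276). Hoxa11 (chr6:52242106-52245810) went from 3.55, 6.94 and 8.83 against 1.27, 0.834, 0.419 and 2.78 to 65.6, 66.5, 73.9 and 62.6 against 110.2, 120.0 and 124, WT given before Gli3-/-. Its interaction was 2.51 (SE 0.40, limma adjusted p = 0.00433), and it overlaps the antisense gene Hoxa11os. Hoxa10 followed the same order, from 6.35, 13.7 and 17.1 against 2.77, 3.00, 1.03 and 5.69 to 110.5 to 126 against 157 to 169 (interaction 2.19, SE 0.46, limma adjusted p = 0.0219), a call lost on leaving out any of 5 libraries. Hoxa9 was lower in the early mutants, at 32.8, 35.8 and 40.2 against 10.3, 21.8, 9.55 and 14.6, and overlapped WT in the late ones (interaction 1.40, SE 0.28, limma adjusted p = 0.0171, lost without E9.25 WT replicate 3). The late differences of Hoxd10 and Hoxa11, 0.82 and 0.80, had limma adjusted p of 0.24 and 0.216 in the joint model and of 0.000544 and 0.000643 in the fit of E10.5 alone.

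The 14 reversals were 6 genes that were lower in the early and higher in the late mutants (among them Hoxd11, Fgf8, Hoxa11os, Shox2 and Cd40) and 8 with the opposite order (Gm14226, Sfrp1, Meis3, Hoxb4, Krt19, Hoxa4, Sv2a and Krtcap3). Their genotypes did not overlap at either stage, except for Krt19 at E9.25. Among all tested genes 3.02% had no overlap at both stages. Hoxd11 (chr2:74679557-74687016), a 5' HoxD gene of the zeugopod, was at 1.81, 2.81 and 2.20 in E9.25 WT and at 1.16, 0.430, 0.215 and 0.908 in Gli3-/-. It was at 33.8, 64.2, 47.5 and 41.0 in E10.5 WT and at 173, 226 and 201 in Gli3-/-. The interaction was 3.10 (SE 0.32, limma adjusted p = 0.000219), from −0.99 at E9.25 to 2.11 at E10.5.

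Fgf8 (chr19:45736798-45742915), the principal FGF of the apical ridge, was at 40.3, 57.8 and 71.1 in E9.25 WT and at 18.3, 18.3, 17.6 and 36.6 in Gli3-/-. It was at 59.0, 50.4, 69.0 and 57.8 in E10.5 WT and at 131, 157 and 171 in Gli3-/-. The ligand was thus lower and then higher in the mutants, with differences of −1.31 and 1.36 and an interaction of 2.67 (SE 0.33, limma adjusted p = 0.000732). Dusp6, a feedback phosphatase whose transcription follows FGF signalling, passed as well (1.36, SE 0.25, limma adjusted p = 0.0119): its levels were 118, 159 and 191 against 75.3, 113, 94.1 and 142 at E9.25, which overlapped, and 161 to 185 against 298 to 307 at E10.5. Of the 17 tested FGF ligands, receptors and feedback genes, 3 passed with a positive interaction (Fgf8, Fgf4 and Dusp6) and 2 with a negative one, the receptor genes Fgfr3 (−2.31) and Fgfr2 (−1.87). The Fgfr2 call was lost on leaving out any of 7 libraries, and the gene as listed overlaps 22 other expressed genes, so that its TPM is uncertain. The list's median was 0.66, against −0.24 for all genes, and 14 of the 17 lay above the median gene. The interaction passed for 2.13% of all genes.

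Shox2 (chr3:66971727-66981771), a homeobox factor of the proximal limb, was at 5.62, 6.19 and 9.46 in E9.25 WT and at 1.97, 2.40, 0.962 and 1.90 in Gli3-/-, and at 99.2, 118, 113 and 129 in E10.5 WT and 191, 231 and 176 in Gli3-/-. The mutants had less of it than WT early and more of it late (interaction 2.32, SE 0.27, limma adjusted p = 0.00053). Sfrp1 (chr8:23411502-23449632), a secreted Wnt inhibitor, had the opposite order, at 46.0, 26.5 and 30.3 in E9.25 WT against 70.1, 108, 98.7 and 65.9 in Gli3-/-, and at 33.7, 27.6, 36.4 and 38.5 in E10.5 WT against 13.7, 17.2 and 9.72 in Gli3-/-. Its interaction was −2.59 (SE 0.32, limma adjusted p = 0.000685). Of the 18 tested Wnt ligands, inhibitors and targets, 2 passed (against 2.13% of all genes), Sfrp1 and the inhibitor gene Nkd1, both negative. The call of Nkd1 was lost on leaving out any of 8 libraries. Meis3, a TALE homeobox partner of 3' Hox proteins, went from 10.4, 9.04 and 4.47 against 13.2, 21.3, 18.2 and 13.1 to 4.17 to 5.87 against 1.09 to 2.1002 (interaction −2.29, SE 0.35, limma adjusted p = 0.00304).

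The 55 genes that passed at neither stage had median differences of 0.56 at E9.25 and −0.60 at E10.5 for the 49 negative interactions, and of −0.42 and 0.58 for the 6 positive ones. Among the former were Tmem28 (−1.80, SE 0.34, limma adjusted p = 0.0123), Lamb2, the gene of a laminin chain (−1.89, SE 0.38, limma adjusted p = 0.0187), Gm24407, a small nuclear RNA gene (−2.08), Gm11536 (−1.91) and A830082K12Rik (−2.09), which overlaps Nr2f1. The positive ones were Tfap2c, Nefm, a neurofilament gene (1.03), Esm1, the gene of an endothelial proteoglycan (0.98), Sertad4 (0.81), Gap43, a growth cone gene (0.76), and Tmem204. Many of these calls were fragile: that of Gm11536 was lost on leaving out any of 12 libraries, those of Esm1 and Sertad4 of 11, A830082K12Rik of 7, Nefm and Gap43 of 6 and Gm24407 of 5. Nefm met the expression filter in only 23 of 27 alternatives, so that its dependence on single libraries may be understated. That of Lamb2 was lost without E10.5 Gli3-/- replicate 3 alone, and that of Tmem28 passed without any single library.

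The Hox genes divided by their position in the clusters, and are described together after this was seen. The clusters are expressed in order, with the 3' genes (low paralog numbers) earlier and more proximal and the 5' genes later and more distal. The tables listed 39 Hox genes, and 35 of them were tested. Of the 23 of paralog groups 1 to 8, 20 had a negative interaction, 16 passed as negative and 0 as positive, with a median of −1.55 and a range from −2.94 to 0.78. Of the 12 tested of groups 9 to 13, 11 had a positive interaction, 8 passed as positive and 0 as negative, with a median of 2.35 and a range from −0.64 for Hoxc13 to 4.74 for Hoxd13. Over all genes 1.65% passed as negative and 0.477% as positive. Within HoxA and HoxD, 8 of a list of 10 5' genes (groups 9 to 13 and Hoxd8) passed as positive and 5 of a list of 10 3' genes as negative, with medians of 2.57 and −1.07. Read against the median gene at −0.24, the sides remained apart: with libraries centred on their median, 14 of the first set passed as negative and 1 as positive, and 9 of the second as positive.

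**Figure D4:**
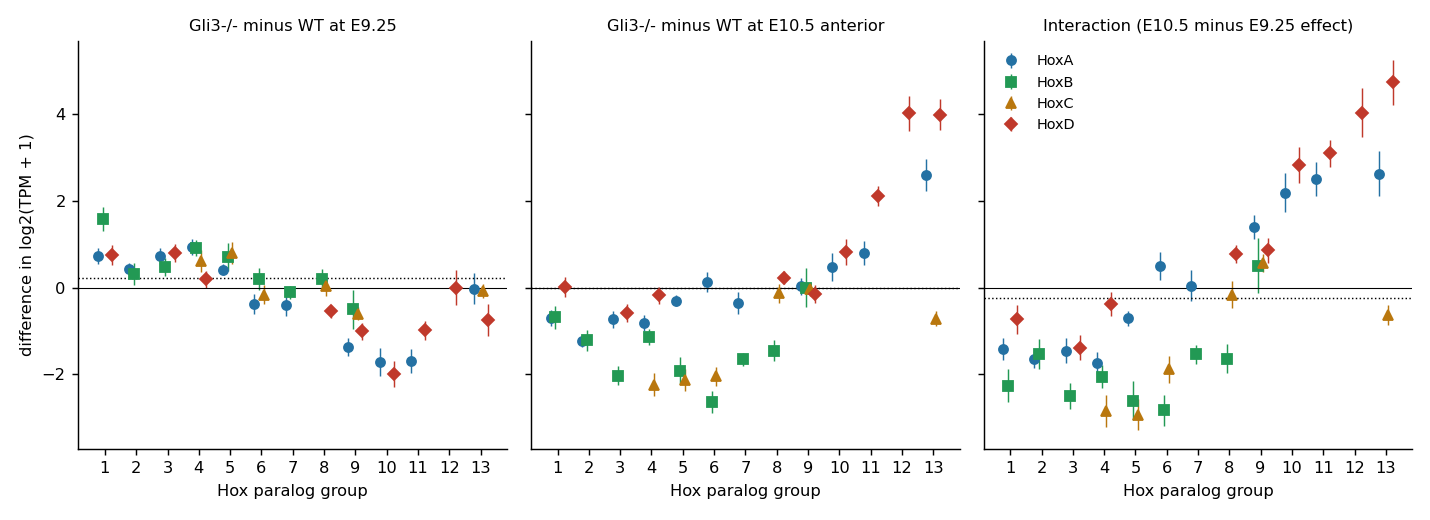
Gli3-/- minus WT difference at E9.25 and at E10.5 anterior and their difference, the interaction, in log2(TPM + 1), for the 35 tested Hox genes by paralog group and cluster, with bars for the standard error and a dotted line at the median of all genes tested. Groups 1 to 8 lie mostly above 0 at E9.25 and below it at E10.5, and HoxA and HoxD genes of groups 10 to 13 lie at or below 0 at E9.25 and above it at E10.5.

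At E9.25 the genes of groups 1 to 8 had a median difference of 0.43, with 5 called higher and 1 lower, and those of groups 9 to 13 a median of −0.87, with 0 called higher and 7 lower. At E10.5 the medians were −0.81, with 0 called higher and 12 lower, and 0.63, with 4 called higher and 1 lower. All 8 HoxB genes of groups 1 to 8 passed with a negative interaction, from −1.53 for Hoxb2 to −2.84 for Hoxb6 (SE 0.36, limma adjusted p = 0.00087). The calls of Hoxb2 and Hoxb8 were lost on leaving out any of 7 and 6 libraries, and that of Hoxd3 on any of 4. Hoxb4 (chr11:96318267-96321638) reversed, at 24.8, 19.9 and 18.03 in E9.25 WT against 36.2, 48.6, 39.7 and 37.0 in Gli3-/-, and at 11.4, 7.30, 8.47 and 7.35 in E10.5 WT against 4.00, 3.85 and 2.31 in Gli3-/- (interaction −2.06, SE 0.26, limma adjusted p = 0.00087). Hoxb1, at the 3' end of its cluster, was at 19.1, 12.8 and 7.23 against 31.5, 48.1, 41.1 and 34.3 at E9.25 and at 0.374 to 1.57 against 0 to 0.136 at E10.5. It thus belonged to the vanishing class (interaction −2.27, SE 0.39, limma adjusted p = 0.00716).

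The central genes Hoxa5, Hoxa6, Hoxa7, Hoxc8, Hoxd4 and Hoxd8 did not pass, nor did Hoxd1, nor Hoxb9, Hoxc9, Hoxc13 and Hoxd9 at the 5' side. Hoxa5 (−0.71, limma adjusted p = 0.057) and Hoxd8 (0.78, adjusted p = 0.0716) came nearest. Several Hox genes share sequence with neighbours in the annotation: Hoxc5 spans Hoxc6, Hoxc8 and Hoxc9, Hoxa3 spans Hoxa4 to Hoxa6, and Gm28309 overlaps Hoxd10 and Hoxd11, so that the counting could have split their reads. Without the doubtful WT library, 15 genes of groups 1 to 8 and 7 of groups 9 to 13 passed. Without E10.5 Gli3-/- replicate 3 the counts were 12 and 6. With the replicate numbers as a block in the model, by either numbering, they were 4 and 5.

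The targets of HH signalling formed a further set. The list of 74 predicted targets was drawn up by the study from other samples of this system, and 73 were tested. It holds genes that were lower in Shh-/- limb buds at E10.5 and lie near GLI3-bound regions that respond to HH. The list was thus selected at the late stage, which favours members that respond at E10.5. Their median difference was 0.25 at E9.25 and 0.59 at E10.5, against 0.21 and −0.02 for all genes. Of them 18 were called at E9.25 (15 higher) and 23 at E10.5, all higher. Over all genes 4.86% were called at E9.25, 686 of 796 higher, an excess that did not hold under other scalings. At E10.5 2.36% of all genes were called, 131 of 386 higher. The interaction passed for 9 of the targets (12.3%, against 2.13% of all genes), 9 positive and 0 negative, with a median of 0.20 against −0.24 for all genes. These were Hoxd10 to Hoxd13, Socs2, a cytokine signalling inhibitor, Smoc1, a secreted matricellular BMP antagonist, Gldc, a glycine decarboxylase, Tfap2c, an AP-2 factor, and Pdzd2. The count moved with the scaling, to 21 with libraries centred on their median or quantile normalization and to 18 with median-of-ratios scaling, all of them positive. It was 10, all positive, without the doubtful WT library, and 6, all positive, without E9.25 WT replicate 3 or E10.5 WT replicate 4. Without E9.25 WT replicate 1 there were 12 positive and 4 negative calls, and with quality weights per library 16 and 2. The call of Pdzd2 was lost on leaving out any of 11 libraries, that of Smoc1 on any of 5 and that of Tfap2c on any of 4. Smoc1 passed at E10.5 alone (18.9 to 24.9 in WT against 44.0 to 54.9 in Gli3-/-), whereas Socs2 was lower in the early mutants (27.3, 32.6 and 41.1 against 14.9, 15.9, 11.8 and 21.9) and at 15.0 to 19.6 against 24.6 to 31.3 in the late ones.

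Several genes chosen beforehand, some of them known for responding to the pathway, did not pass the interaction. Ptch1 was at 8.08, 2.48 and 5.82 against 21.4, 38.5, 32.2 and 23.7 at E9.25 and at 9.54, 11.7, 11.3 and 9.70 against 28.7, 38.3 and 33.96 at E10.5. The mutants were above WT at both stages, by 2.28 and 1.58, and the interaction was −0.70 (SE 0.38, limma adjusted p = 0.281). Gpx6 (chr13:21312217-21319624) is a glutathione peroxidase gene on the same chromosome as Gli3. It was likewise higher at both stages, 0.543 to 0.744 against 5.98 to 9.38 and 0 to 0.460 against 7.44 to 7.82 (interaction 0.44, SE 0.24, limma adjusted p = 0.289). Hand2, a posterior factor that GLI3 represses, was higher by 0.92 and 1.90 (interaction 0.98, SE 0.32, limma adjusted p = 0.133). Grem1, the BMP antagonist of the posterior mesenchyme, differed by 0.21 and 1.19 (interaction 0.98, SE 0.29, limma adjusted p = 0.0983), which passed without E9.25 Gli3-/- replicate 4 and without E10.5 WT replicate 2. Osr1, a zinc finger factor of lateral plate, differed by 2.09 and 0.90 (interaction −1.19, SE 0.41, limma adjusted p = 0.149). Hhip, which binds and limits HH ligand, differed by 0.81 and 0.29 (interaction −0.52, SE 0.30, limma adjusted p = 0.306), and Gli1, an activator and target of the pathway, by 0.68 and 0.33 (interaction −0.36, SE 0.41, limma adjusted p = 0.601). Cdk6, a G1 kinase gene, was at 15.3, 3.52 and 13.7 against 17.7, 33.2, 24.3 and 24.3 at E9.25 and at 11.2 to 13.2 against 19.6 to 21.3 at E10.5, above WT at both stages (interaction −0.60, SE 0.47, limma adjusted p = 0.44). A p that misses the threshold does not show that these responses were alike at both stages.

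In all, 44 genes passed at both stages in the joint model. The direction was the same for 30, of which 16 were higher and 14 lower in the mutants and 0 had a called interaction (4 at an unadjusted limma p below 0.05), and opposite for the 14 reversals. Genes of the same direction included Ptch1, Gpx6, Hand2, Ccnd1, a G1 cyclin, Gsc, a homeobox factor of proximal mesenchyme, Asb4 and Crabp2, a retinoic acid binding protein. Over the 348 called genes the stage effects had opposite signs for 307, or 88.2%, and for 283 relative to the median gene. Among all tested genes this share was 47.5%, but a gene with opposite signs has the larger difference, so that selection by the interaction favours it.

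The lists of limb genes are read beside the background of 2.13%. Of the 14 posterior limb genes, 5 passed as positive (Hoxd11 to Hoxd13, Shh and Fgf4) and 2 as negative, Gata6 (−1.72, limma adjusted p = 0.0455, a call lost on leaving out any of 12 libraries) and Tbx2, a T-box repressor (−2.12, SE 0.38, limma adjusted p = 0.00924). Tbx2 was at 13.4, 8.93 and 7.22 against 10.9, 18.2, 14.9 and 13.7 at E9.25, which overlapped, and at 8.18 to 18.6 against 2.65 to 5.24 at E10.5. Members of the posterior list thus went both ways, with a median of 0.97. Of 17 tested anterior limb and girdle genes, 7 passed as negative and 3 as positive (Tbx15, Zic2 and Lhx2), the latter with lower levels in the early mutants. At E9.25 8 of the 17 passed, 6 of them lower, and at E10.5 7 passed, all lower. Of 18 tested components of the HH pathway 2 passed, Shh and Cdon, a co-receptor that binds the ligand. Cdon was at 17.8, 7.38 and 13.5 against 11.4, 19.4, 13.9 and 13.1 at E9.25 and at 50.3, 42.3, 54.9 and 59.8 against 19.2, 18.7 and 17.8 at E10.5, so that the groups overlapped early and were separate late (interaction −1.63, SE 0.32, limma adjusted p = 0.0173; lost without E10.5 Gli3-/- replicate 3).

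**Figure D5:**
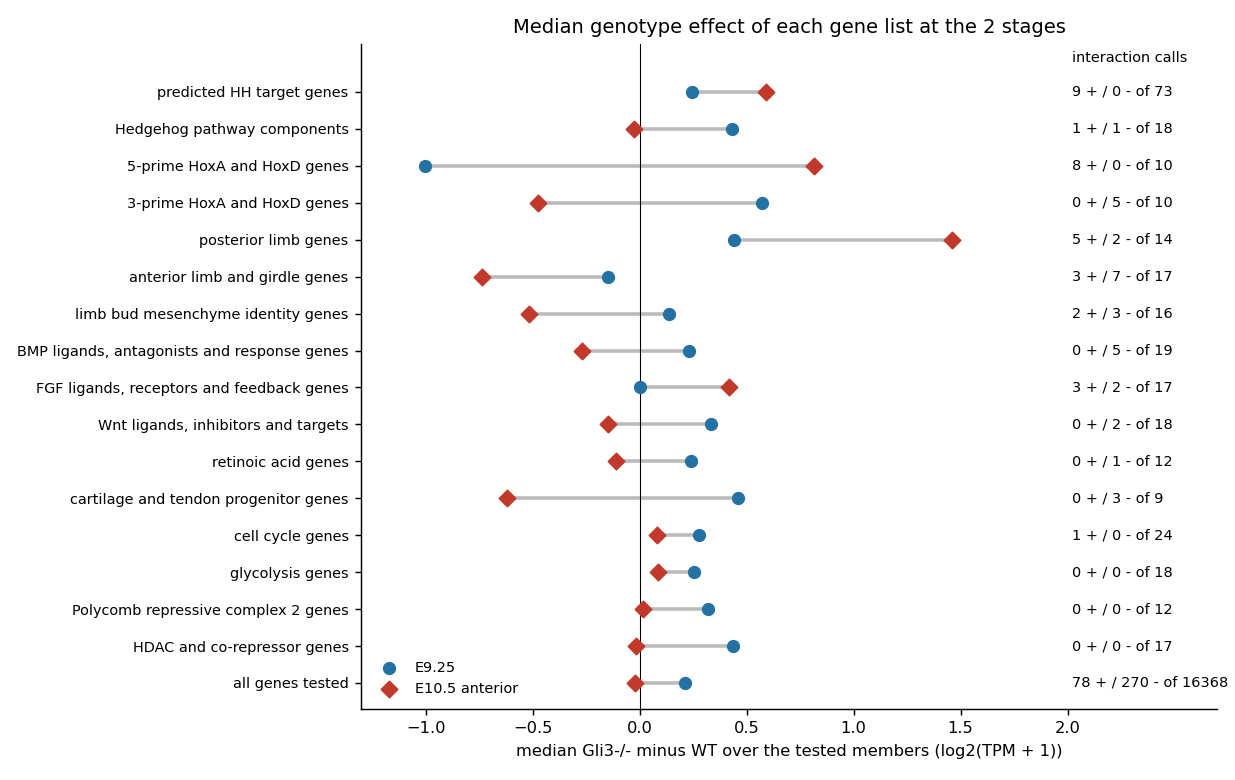
Median Gli3-/- minus WT difference at E9.25 and at E10.5 anterior, in log2(TPM + 1), for each gene list other than the tissue markers. The medians are joined by a line, with the number of members whose interaction passed in each direction. The 5' HoxA and HoxD genes (with Hoxd8) move from −1.001 to 0.81 and the 3' HoxA and HoxD genes from 0.57 to −0.47.

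Of 9 tested cartilage and tendon progenitor genes, 3 passed as negative, Sox6, Col9a1 and Runx2, with a list median of −1.08, and their calls were lost on leaving out any of 7, 11 and 11 libraries. None of the 3 passed without E9.25 Gli3-/- replicate 2 or 3, E10.5 WT replicate 3 or 4, or E10.5 Gli3-/- replicate 1 or 3. Among 16 limb mesenchyme identity genes, 2 passed as positive and 3 as negative, and among 12 retinoic acid genes 1 passed, the receptor gene Rarb, as negative. Of 24 cell cycle genes 1 passed, Cdkn1a, the gene of the inhibitor p21, as positive, and their median of −0.18 was near that of all genes. None of 18 glycolysis genes, 12 Polycomb repressive complex 2 genes and 17 genes of HDACs and co-repressors passed in limma, with medians of −0.14, −0.33 and −0.45, and 1, 3 and 6 of them had an unadjusted p below 0.05. Markers of primitive erythroid cells (0 of 14), endothelium (0 of 16), macrophages (0 of 9), heart (0 of 7), neural crest (0 of 4) and endoderm (0 of 3) did not pass in limma either, with 0, 6, 1, 4, 1 and 0 at an unadjusted p below 0.05. Of the remaining markers, 2 of 8 for skeletal muscle progenitors passed as positive (Chrna1 and Lbx1), 1 of 6 for somites in each direction, 2 of 7 for intermediate mesoderm (Lhx1 and Gata3) as negative, and 1 of 18 for surface ectoderm in each direction (Fgf8 and Krt18). Chrna1 reached TPM 1 only in the 3 E10.5 Gli3-/- libraries (1.73 to 2.23), so that leaving out any of them removed it from testing. The call of Lbx1 was lost on leaving out any of 11 libraries.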

How the data were processed

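RNA-seq was performed on pooled forelimb buds with an RNA library kit (NEBNext Ultra II), and per the study's methods reads were aligned with HISAT2 and tested with a count model. The authors deposited, per library, a gene table with TPM, FPKM and coverage, in coordinates of mm10 per the submitters' processing notes; the program and annotation behind it are not given in the sources used here. The tables deposited by the authors hold no counts, so that limma 3.58.1 (R 4.3.3) was used in its place. TPM alone was tested. The deposited FPKM and coverage served to estimate 38.1 to 56.8 M reads per library, at which TPM 1 equals 20.7 to 29.3 reads per kb.

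Genes that reached TPM 1 in 3 or more of the 14 libraries were fitted as log2(TPM + 1) with 1 mean per group, empirical Bayes with a trend, 10 residual degrees of freedom, and two-sided p-values adjusted by Benjamini-Hochberg (threshold 0.05). Replicates are separate pools, and p-values measure the spread between pools. Lists and genes were chosen with earlier results of these data known. Genes named were up to 6 of largest interaction per class and direction (for reversals all, except 1 that is not reported here), called members of the HH, 5' Hox, anterior and posterior lists, 12 preset genes, and up to 4 examples of other lists. Further genes, named where 5 or fewer were counted or where the response was the same at both stages, were chosen after their values were seen. The grouping of Hox genes by paralog group and the counts of lists under alternatives were added after the data were seen. Leaving out each library, scaling, pseudocount, filter, weights, a replicate block and thresholds were tried. The interaction test was run on simulated data with 1 spread per gene over all 14 libraries and effects in the E10.5 Gli3-/- group alone. Neither a spread that differs between stages nor the response classes were simulated.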

Additional observations from a re-analysis of the deposited data

Results flagged for a closer look

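The difference between the stages was itself tested, and 348 genes passed, of which 151 had a response that appears, 128 one that vanishes and 14 one that reverses. These are the genes described above.

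Single libraries stood apart within groups of 4 for 10 of 168 groups examined (5.95%), where chance gives about 1 in 20. The measure was the gap to the nearest library over the range of the group, set against the critical value of Dixon. Among E10.5 WT libraries, replicate 2 was low for Alx4 (31.9 against 51.0 to 52.9, gap 0.928), Hoxb3 (gap 0.879) and Gm11536 (gap 0.87), and replicate 4 was high for Tmem204 (gap 0.85). Among E9.25 Gli3-/- libraries, replicate 4 was high for Fgf8 (36.6 against 17.6 to 18.3, gap 0.946), replicate 3 was high for Gli1 (2.09 against 0.945 to 0.983, gap 0.958) and low for Hoxa11os (gap 0.867). In the same group Gm28309 and Pax1 were above 0 only in replicate 4 and Hoxd12 only in replicate 1 (gap 1.0 each), at levels of at most 0.244. Fgf8 was still below all E9.25 WT libraries in the library that stood apart.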

How the results depend on the processing

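The sign of the interaction held for all 98 named genes that passed, under each of the up to 27 alternatives run for a gene. Of these, 20 passed in every alternative, and 61 passed in all that neither left out a library nor used a replicate block. The share of negative calls ranged from 50.7% to 89.5%. Counts are given in the order interaction, appears, vanishes, reverses, neither, E9.25 effect, E10.5 effect, for those that moved by over 1.5 times; the cause was not tested.

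Leaving out 1 library gave 150 to 1433, 74 to 180, 21 to 1049, 2 to 58, 20 to 144, 73 to 4891 and 160 to 518. The replicate block gave 42, 24, 11, 2, 5, 69 and 70 with the numbers of the sample titles and 59, 33, 18, 1, 7, 61 and 92 with those of the deposited tables; the mean r of deviations of same-numbered libraries was −0.168 at E9.25 (others 0.0551). At E10.5 it was −0.0531 by titles (others 0.0179) and 0.171 by table numbers (0.0504 to 0.292, others −0.0569). Not every pair exceeded 0.1, so that the numbers were not taken to pair the samples. Quality weights per library gave 830 interactions, 430 appearing, 25 reversing, 261 neither, 215 at E9.25 and 1682 at E10.5. Weights by stage gave 34 vanishing, 98 neither, 68 at E9.25 and 1150 at E10.5. Without a filter there were 60 vanishing, 4 reversing and 165 at E9.25. A minimum of TPM 5 gave 91 appearing, 21 neither, 1207 for the E9.25 effect and 243 for the E10.5 effect. Quantile normalization gave 415 at E9.25. A threshold of 0.01 gave 113 interactions, 65, 20, 1 and 27 by class, and 0.1 gave 749, with 396 vanishing and 66 reversing. With stage effects from separate fits (E9.25: 20 called, E10.5: 747) there were 10 vanishing, 0 reversing and 122 neither.

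The depth is an estimate, so that values below about TPM 0.1 rest on few reads. With 3 or 4 libraries per group, small differences between stages were not detectable.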

Other observations

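The tRNA gene mt-Tw was among the largest negative interactions (−3.07, SE 0.53, limma adjusted p = 0.00717), at 206 to 377 in the E9.25 libraries, 66.4 to 204 in E10.5 WT and 5.51 to 18.7 in E10.5 Gli3-/-. It is shorter than a read, so that its TPM is uncertain. Ccl6, a chemokine gene, had a positive interaction of 2.14 (SE 0.47, limma adjusted p = 0.0268), at 4.58, 9.45 and 8.75 in E9.25 WT and 1.49, 1.10, 0.717 and 4.44 in E9.25 Gli3-/-, and at no more than 1.53 at E10.5. This call was lost on leaving out any of 9 libraries. The gene Gm27861, near the 3' end of HoxA, had a negative interaction of −2.30 (SE 0.47, limma adjusted p = 0.0206), lost on leaving out any of 3 libraries. Gm14226, a noncoding RNA gene and the largest negative reversal, was at 6.18, 3.02 and 7.09 against 13.3, 21.9, 24.3 and 12.6 at E9.25 and at 1.90 to 2.89 against 0.0164 to 0.0752 at E10.5 (interaction −3.30, SE 0.36, limma adjusted p = 0.000358).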
